A study of Homo sapiens with 2 samples.

Results

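The kinesin motor family was examined in HCC15 cells, a human lung cancer line that the labels call squamous, after knockdown of CTNNB1, the gene of beta-catenin. The members were defined by name: probe sets whose only annotated symbol was KIF followed by a number and an optional letter, or KIFC1, KIFC2 or KIFC3. This gave 85 probe sets of 41 genes, of the 19775 genes with a probe set of their own. Of the 41 genes, 14 encode motors of the mitotic spindle, 15 encode motors of organelle and vesicle transport, and 12 have other or less settled roles. The family and these role lists were chosen with earlier results of these data known.

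The data were 2 arrays, 1 of cells given a control siRNA and 1 of cells given CTNNB1 siRNA, both collected 48 h after transfection and kept in medium with 5% serum. The control is titled Tax, and the target of its siRNA is not stated in the labels. The series title concerns lung cancers with mutated CTNNB1, and a single cell line stands for them. Because each group was 1 array, no replicate spread and no test between conditions could be had, so every difference below is between these 2 arrays and includes any difference between the 2 cultures.

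Kinesins are motor proteins that use ATP to move along microtubules or to take them apart at their ends. One branch of the family is made mainly in dividing cells, where it separates the spindle poles, moves chromosomes and completes cytokinesis. Another branch carries vesicles, mitochondria, endosomes and ciliary cargo in all cells, with several members best known from neurons. Transcription of many spindle genes peaks late in the cell cycle through a promoter element called the CHR (cell cycle genes homology region), which is bound by the DREAM complex and its activating relatives, often beside a CCAAT box bound by the factor NF-Y.

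The CHR-type letters in the kinesin promoters are shown here because 11 of the 13 kinesin genes that held them were mitotic members. Of these 11, KIF4B had no ratio and the other 10 had ratios of 0.32 to 0.79. Mitotic genes without the letters had ratios of 0.39 to 0.67. Promoters were taken from RefSeq on GRCh38.p14 and ran from 250 bases before to 50 bases after each annotated start. All 15 mitotic kinesin genes on the list had an entry, KIF4B included, which had no probe set of its own, as did 11 of the 15 transport genes and 8 of the other kinesins. The letters TTTGAA or TTCGAA, on either strand, occurred in the promoters of 11 of the 15 mitotic genes (73.3%), of 1 of the 11 transport genes, KIF5B, and of 1 of the 8 other kinesins, KIF24. They occurred in 19.5% of the 27305 genes with a promoter entry, and in 16.4% of the 35116 promoters. A match of either form can share at most 1 end base with CCAAT, and both forms were counted together. The windows below hold 30 bases each, read on the strand where the element reads forwards, with every CHR-type match in capitals. TTCGAA reads the same on both strands, so the windows of KIF22 and KIF24 are printed on the strand of the gene.
KIF11 (chr10:92593090-92593119, minus strand): tcggcgcctcaaTTTGAAaaagagacagag
KIF14 (chr1:200620733-200620762, plus strand): agaaggccgcaaTTTGAAtgggcgccccgc
KIF15 (chr3:44761747-44761776, minus strand): gatggccgcaaaTTTGAAtttggcgcttgg
KIF18A (chr11:28108149-28108178, minus strand): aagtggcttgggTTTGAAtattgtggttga
KIF18B (chr17:44947754-44947783, minus strand): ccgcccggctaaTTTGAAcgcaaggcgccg
KIF20B (chr10:89701602-89701631, plus strand): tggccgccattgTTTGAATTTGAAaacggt
KIF22 (chr16:29790712-29790741, plus strand): ggcaccggggaaTTCGAAtgggagaggcgg
KIF23 (chr15:69414282-69414311, plus strand): ctgattggcccgTTTGAAatgcgccaggcg
KIF4A (chrX:70290058-70290087, plus strand): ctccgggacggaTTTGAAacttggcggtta
KIF4B (chr5:155013746-155013775, plus strand): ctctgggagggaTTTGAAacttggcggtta
KIFC1 (chr6:33391815-33391844, minus strand): acacccgccactTTTGAAttccaacggcca
KIF5B (chr10:32056548-32056577, minus strand): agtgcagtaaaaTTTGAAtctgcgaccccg
KIF24 (chr9:34329250-34329279, minus strand): acagcgcgggcgTTCGAActggcgcttggc

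In the mitotic genes the element closest to the start began between 55 bases before and 24 bases after it, the start base counted as 0. It lay on the strand opposite to the gene in 4 of the 11. The other 7 include KIF22, whose TTCGAA reads the same on both strands and so has no strand of its own. KIF20B held the element in a tandem pair. KIF4A, a motor on chromosome arms, and its near-identical copy KIF4B shared 28 of the 30 bases of the window. In KIF5B, the heavy chain of the common transport motor kinesin-1, the element began 140 bases before the start. A range from 60 before to 30 after the start was set after these positions were seen. It held the element in 4.73% of all promoters, in 11 mitotic genes, in 0 transport genes and in KIF24. The kinesin counts were thus fixed when the range was set. They count genes, whereas the percentage counts promoters. In KIF24, a kinesin that restrains cilium growth at the mother centriole, the element began 1 base after the start, within the range of positions of the mitotic genes.

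The letters CCAAT, on either strand, were found in 11 of the 15 mitotic genes and in 4 of the 11 transport genes (KIF1B, KIF3B, KIF5B and KIF5C) and 3 of the 8 others (KIF6, KIF12 and KIF24), against 39.7% of all genes with an entry. In the 10 mitotic genes with both elements, the nearest CCAAT lay upstream of the CHR-type match, by 9 bases in KIF23 and 122 in KIF20B at the extremes and by 23 to 50 in the other 8. These 10 include both KIF4A and its near-identical copy KIF4B. The order and spacing of the 2 elements were not counted over all promoters. KIF24 had the same order, with its nearest CCAAT 48 bases upstream of the match. In KIF5B the order was turned, with the CCAAT 81 bases downstream. The upstream parts of the KIF18A and KIF5B promoters are printed to show the 2 arrangements, with CHR-type and CCAAT matches in capitals.
KIF18A (chr11:28108157-28108406, minus strand): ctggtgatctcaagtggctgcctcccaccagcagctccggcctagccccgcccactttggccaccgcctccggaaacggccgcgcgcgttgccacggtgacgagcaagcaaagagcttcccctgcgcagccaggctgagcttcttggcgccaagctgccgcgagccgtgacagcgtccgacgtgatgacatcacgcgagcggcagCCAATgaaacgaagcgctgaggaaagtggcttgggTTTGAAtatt
KIF5B (chr10:32056426-32056675, minus strand): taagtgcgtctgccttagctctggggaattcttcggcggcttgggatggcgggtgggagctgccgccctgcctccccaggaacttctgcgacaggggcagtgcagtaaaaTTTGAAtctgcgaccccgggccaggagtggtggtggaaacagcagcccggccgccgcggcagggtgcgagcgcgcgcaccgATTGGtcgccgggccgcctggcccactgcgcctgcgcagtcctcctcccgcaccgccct

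**Figure D1:**
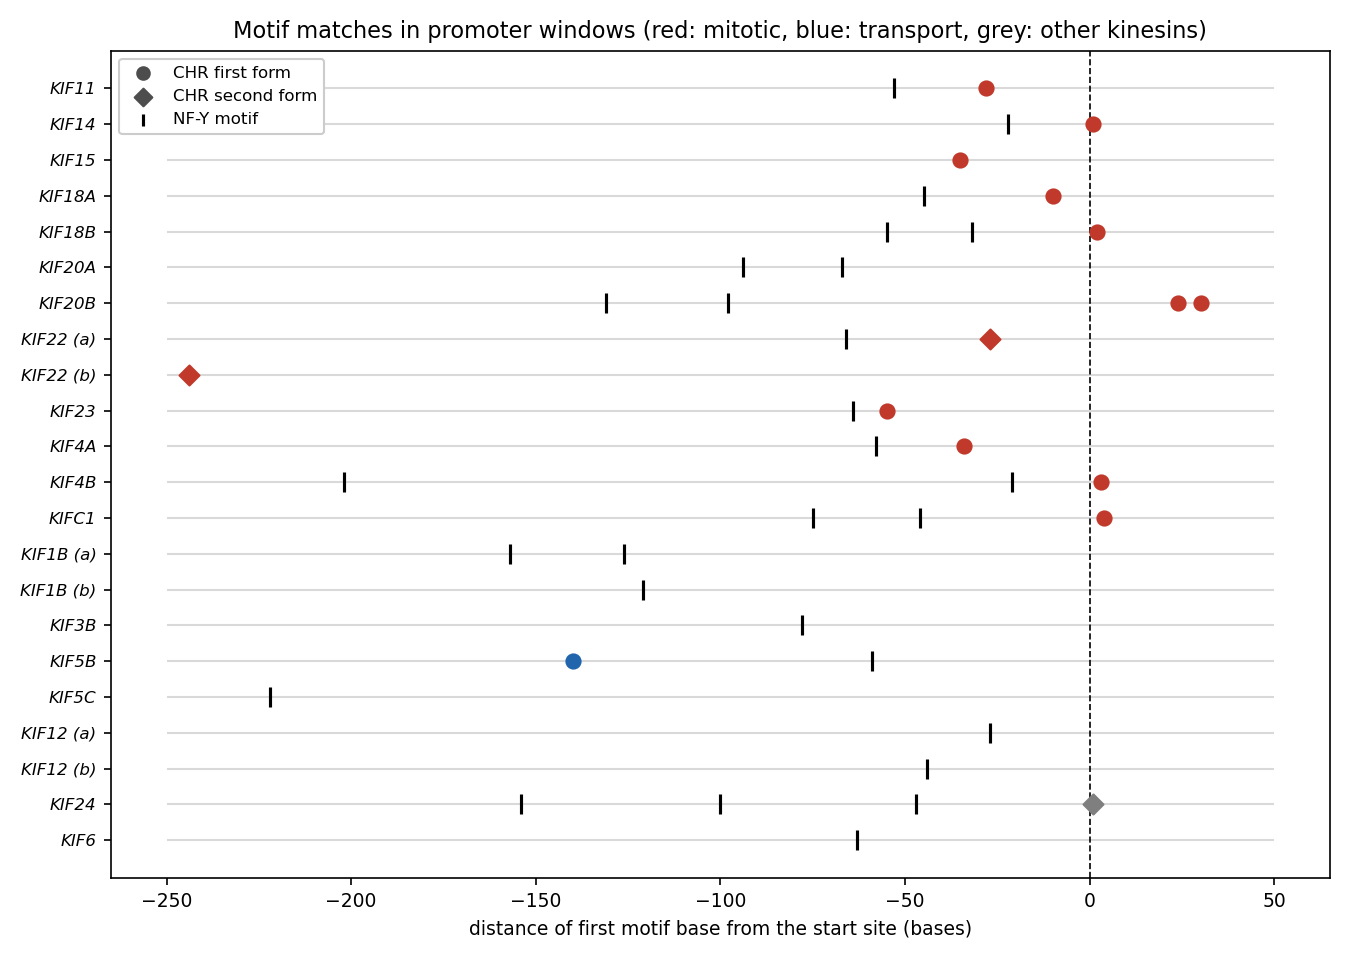
Distance, in bases, of the first base of each CHR-type match (circles and diamonds) and each CCAAT match (black bars, labelled NF-Y motif) from the annotated start, for the mitotic (red), transport (blue) and other (grey) kinesin promoters that held at least 1 match; a and b are 2 promoters of one gene. The mitotic circles cluster around the start, the only blue circle, of KIF5B, lies at -140, and the grey diamond, of KIF24, lies at 1. The second KIF22 promoter has its diamond at -244.

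Signals were the linear MAS5 intensities as deposited, and a log2 ratio is CTNNB1 siRNA over control siRNA. Values below a floor of 13.8 were raised to it, and a probe set was used when the mean of its 2 signals reached 49.1, the median of all values. A gene was represented by its brightest probe set of that kind, which gave 12531 genes and 32 of the 41 kinesins, 31 of them with both signals above 49.1. The arrays had median signals over all probe sets of 51.3 (control siRNA) and 46.7 (CTNNB1 siRNA). CTNNB1 itself had a signal of 1224 and 339 in its brightest probe set, a log2 ratio of -1.85, with -0.97 and -0.13 in its other probe sets. All 6 epithelial markers passed the signal filter. Of 6 squamous markers, 4 had a probe set of their own. Only SOX2 passed the filter, at 60.1 and 41.6, with KRT5, KRT14 and DSG3 below it. Of 4 lung adenocarcinoma markers, 3 passed. So did 1 of 3 leukocyte markers (CD14, 67.1 and 80.3) and 1 of 3 endothelial markers (PECAM1, 96.4 and 80.8). Passing this filter thus does not by itself show a cell type. The number of arrays limits the precision.

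As a yardstick of error, log2 ratios of probe sets of the same gene had a pooled SD of 0.42, and of 0.29 among probe sets with a mean signal of at least 209. This SD covers differences between probe sets and transcripts and not between cultures. The median log2 ratio of all genes was 0.15. Split by signal, the lowest decile of genes had a median of -0.23 and the 2 highest had 0.28 and 0.27.

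Mitotic kinesins were higher on the CTNNB1 siRNA array in every gene that passed the signal filter. All 13 had a log2 ratio above 0, against 64.0% of all genes and 76.1% of genes with a mean signal of at least 209, which these 13 also had. Their ratios ran from 0.32 to 0.79 with a median of 0.50 and an SD between genes of 0.16. None reached a 2-fold difference, which 4.67% of all genes did, 2.29% upward and 2.38% downward. A log2 ratio of at least that of the lowest member, 0.32, was seen in 31.2% of all genes and in 36.7% of those with a mean signal of at least 209. A single ratio of this size was thus common among all genes, and 9 of the 13 were above the probe set SD of 0.42. That SD is taken around the mean of each gene and leaves out the shift shared by bright genes, which the ratios include. Set against the median of its own decile of genes by signal, only KIFC1 (0.59) and KIF18A (0.53) were above 0.42. For probe sets with a mean signal of at least 209 the SD was 0.29. On the decile scale KIF2C (0.41), KIF2A (0.37) and KIF18B (0.35) were above that too. KIF4A was at 0.29 and the other mitotic genes were below it. KIF2B, the remaining mitotic gene with a probe set, read 4.50 and 2.90, under the floor on both arrays.

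The motors that build the bipolar spindle had ratios of 0.39 to 0.79. KIFC1, a minus-end-directed motor that focuses spindle poles and gathers extra centrosomes, read 565 with control siRNA and 979 with CTNNB1 siRNA, the largest ratio of the mitotic group at 0.79. KIF11, the motor known as Eg5 that slides antiparallel microtubules and pushes the poles apart, read 2155 and 3057, a ratio of 0.50. KIF15, which can maintain bipolar spindles alongside KIF11, read 317 and 415, a ratio of 0.39. Each of these genes rested on 1 probe set.

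The motors of chromosome arms and microtubule ends had a median ratio of 0.64 over 6 genes. KIF18A, which dampens chromosome movements at the metaphase plate, read 846 and 1449 (0.78). KIF2C, also called MCAK, a depolymerase at centromeres that helps to correct faulty attachments, read 2569 and 4094 (0.67), and 1240 and 1833 in its second probe set (0.56). These 2 genes and KIFC1 were the mitotic members with the largest ratios.

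KIF18B, which acts on the plus ends of astral microtubules, read 1572 and 2426 (0.63). KIF4A, a chromokinesin that also limits the length of midzone microtubules, read 2727 and 3999 (0.55), and its probe set may take signal from KIF4B. KIF22, a chromokinesin also called Kid that pushes chromosome arms away from the poles, read 742 and 947 (0.35), and 120 and 152 in its dimmer probe set (0.34). The 2 probe sets of KIF22 thus differed by 0.01 on the log2 scale.

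KIF2A, a depolymerase of spindle poles that also works in neurons, gave probe sets that differed more. The brighter one read 1137 and 1782 (0.65) and the dimmer one 195 and 208 (0.09). Without KIF2A the median of the mitotic list was still 0.50.

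The midzone and cytokinesis motors lay closest together, with ratios from 0.32 to 0.50 over 4 genes. KIF14, which is needed late in cytokinesis, read 2020 and 2863 (0.50), and 1724 and 2467 in a second probe set (0.52). KIF20A, which brings Aurora B and its partners to the central spindle, read 1992 and 2605 (0.39). KIF23, the motor subunit of centralspindlin, read 1278 and 1597 (0.32), the lowest ratio of the 13, and 57.6 and 82.7 in a dim probe set (0.52).

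KIF20B, a relative of KIF20A with a role in the completion of cytokinesis, read 1268 and 1745 (0.46). A second, dimmer KIF20B probe set, whose name marks possible cross-hybridisation, read 163 and 146 (-0.16). It was the single one of the 19 mitotic probe sets above the filter with a ratio below 0. No mitotic gene had probe sets that differed by more than 1 on the log2 scale.

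**Figure D2:**
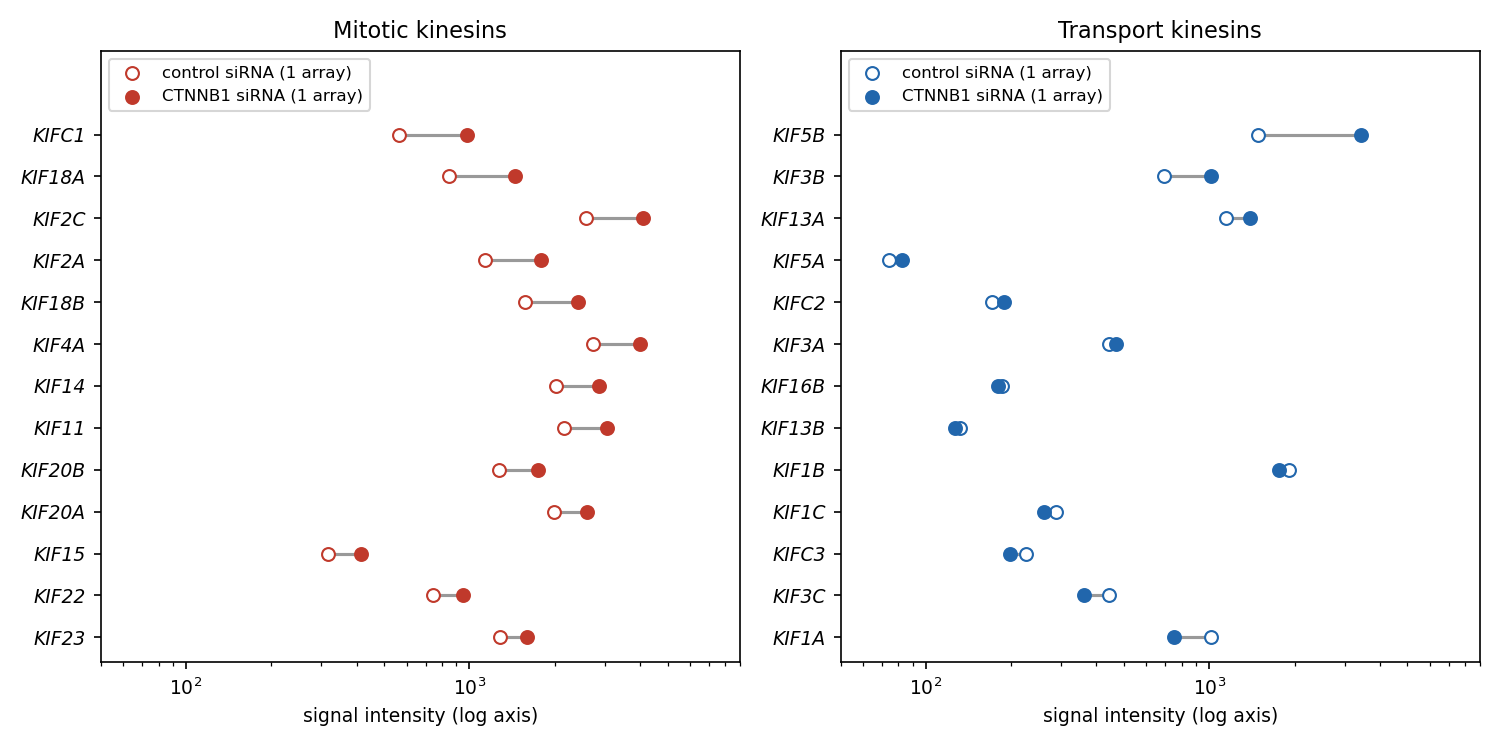
Signal intensity (log axis) of each mitotic (left) and transport (right) kinesin gene that passed the signal filter, with an open circle for the control siRNA array and a filled circle for the CTNNB1 siRNA array, sorted by log2 ratio. In all 13 mitotic genes the filled circle lies to the right, from KIF23 (1278 and 1597) to KIFC1 (565 and 979), whereas 7 of the 13 transport genes have it to the left.

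Transport kinesins were divided in direction, and a single gene, KIF5B, passed 2-fold. Of the 15 genes, 13 passed the signal filter, with 6 ratios above 0 and 7 below, against 64.0% of all genes above 0 and 35.9% below. This count depended on the scaling: with both arrays scaled to a common median 9 were above 0 and 4 below, beside 74.4% of all genes above 0, and after centring on the median ratio 3 were above and 9 below. Their ratios ran from -0.43 to 1.20 with a median of -0.06 and an SD between genes of 0.42, equal to the probe set SD. KIF5C and KIF17 did not pass the filter. The sign of the median depended on the processing: it was 0.07 after scaling both arrays to a common median and 0.15 with the median over each gene's probe sets.

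Kinesin-1 gave the largest ratio of the 13. KIF5B, the kinesin-1 heavy chain made in most cells, read 1489 and 3432 in its brightest probe set, 2.30-fold higher with CTNNB1 siRNA. Its other probe sets were higher too, by less: 1647 and 2903 (0.82), and 318 and 390 (0.29). KIF5B was under 2-fold with the median over its probe sets (0.82), after loess (0.93) and after quantile normalization (0.91).

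KIF5A, the heavy chain best known from neurons, read 74.0 and 82.1 (0.15), and its 2 probe sets under the filter went the other way (49.0 and 20.8, 42.6 and 28.7). KIF5C, likewise neuronal, was dim in its 3 probe sets, and those above the floor on at least 1 array had opposite signs (25.2 and 46.6, 48.5 and 10.7).

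The kinesin-2 genes were split. KIF3A and KIF3B form the motor pair that, with the subunit KIFAP3, drives transport into cilia. KIF3B read 690 and 1015 (0.56), and 577 and 973 in its second probe set (0.75), so that both lay among the ratios of the mitotic genes. KIF3A read 444 and 468 (0.08), and 95.5 and 128 in a dimmer probe set (0.43). KIFAP3, which is no kinesin itself, was lower, with 285 and 165 (-0.79). The 3 subunits of 1 motor therefore had ratios of 0.56, 0.08 and -0.79 on these arrays.

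KIF3C, an alternative partner of KIF3A, read 442 and 361 (-0.29), and 241 and 170 in its second probe set (-0.50). KIF17, which forms a kinesin-2 motor with itself, read 34.5 and 21.5 in its 1 probe set, below the filter. KIF3B and KIF3C thus went opposite ways in each of their probe sets.

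Of the 6 kinesin-3 genes, 5 had ratios below 0 as deposited, against 35.9% of all genes, and none reached 2-fold. That direction depended on the scaling: with a common median 2 of the 6 were below 0, beside 25.6% of all genes, with KIF1B at 0.02, KIF13B and KIF16B at 0.07, KIF1C at 0.00 and KIF1A at -0.29. KIF1A, a carrier of synaptic vesicle precursors, read 1010 and 750, the lowest ratio of the transport group at -0.43, and 59.7 and 50.8 in a dim probe set (-0.23). KIF1B, a carrier of mitochondria and vesicles, read 1905 and 1756 (-0.12), with -0.14 and 0.22 in its other probe sets above the filter. KIF1C, which carries vesicles and integrins, read 287 and 261 (-0.14). Of the ratios of the 6 genes, 1, that of KIF1A, was larger than the probe set SD.

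KIF13B read 132 and 127 (-0.06) and KIF16B, a motor of early endosomes, 186 and 179 (-0.06), although a dimmer KIF16B probe set read 76.7 and 108 (0.50). KIF13A, a motor of recycling endosomes, read 1142 and 1392 (0.29). Its 5 probe sets above the filter disagreed, from -0.38 to 0.99, and its median over them was -0.08. The bright KIF13A probe set and the dim ones may read different transcripts, which was not tested.

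The 2 minus-end-directed transport motors were close to 0. KIFC2 read 171 and 188 (0.13), and 72.7 and 128 in a second probe set (0.81). KIFC3, which works at the apical membrane and at cell junctions, read 226 and 198 (-0.19), but its dim probe set went from 35.9 to 72.1 (1.01). With the median over probe sets KIFC3 had a ratio of 0.41, so its direction depended on the probe set.

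**Figure D3:**
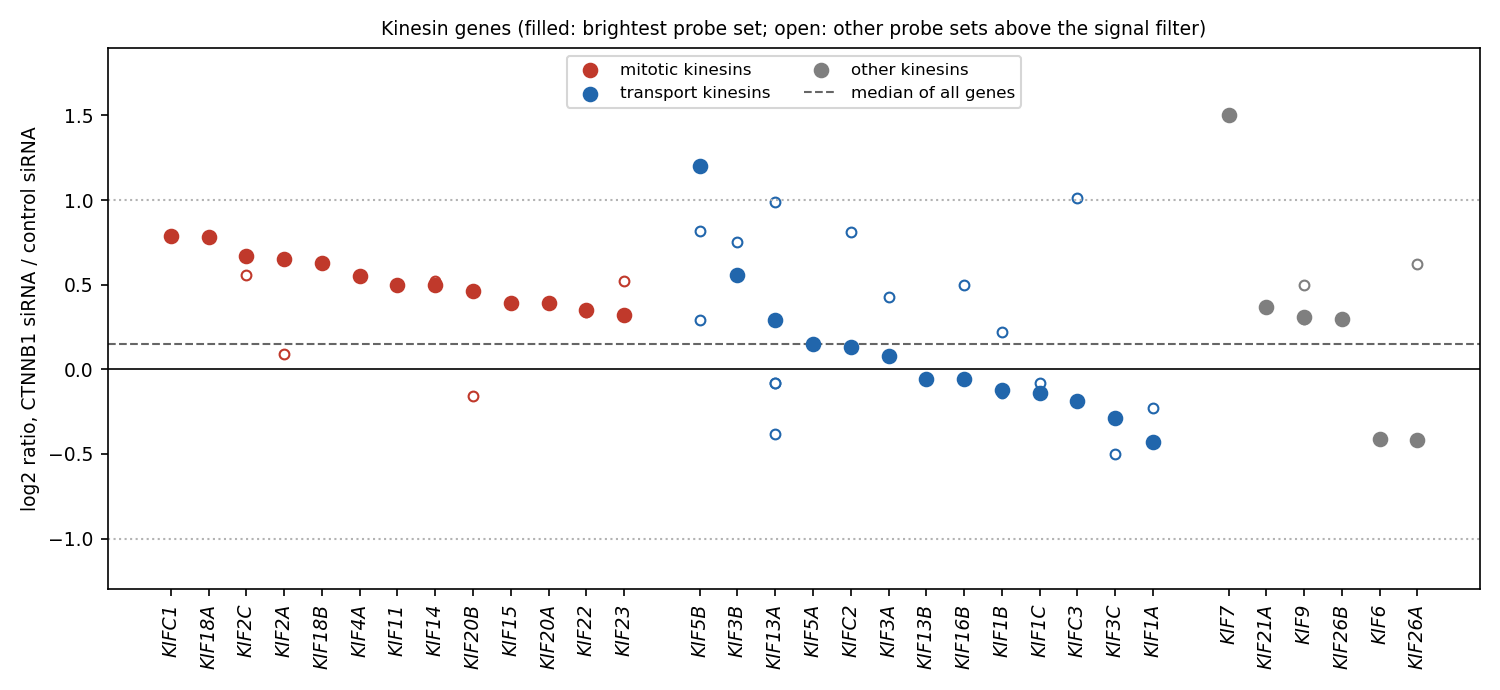
Log2 ratio of CTNNB1 siRNA over control siRNA for each kinesin gene above the signal filter, with a filled circle for the brightest probe set and open circles for its other probe sets above the filter. The dashed line is the median of all genes (0.15) and dotted lines mark 2-fold. The mitotic genes lie between 0.32 and 0.79, and only KIF5B and KIF7 have a filled circle beyond 2-fold.

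Mitotic and transport kinesins, in role lists set with earlier results of these data known, differed by 0.57 in their median log2 ratio. The 2 groups overlapped: 2 transport genes, KIF5B and KIF3B, reached the lowest mitotic ratio and 11 lay below it. Of the 169 pairs of 1 mitotic and 1 transport gene, the mitotic gene had the higher ratio in 148 (87.6%). All 13 mitotic genes lay above the median of all genes, as did 3 of the 13 transport genes. Without KIF5B the transport median was still -0.06.

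Signal moved with this difference. The mitotic genes had a median mean signal of 1507 and the transport genes of 402, and the ratio of all genes was larger at higher signal. Set against the median of its own decile of genes by signal, each of the 13 mitotic genes was still above it, by 0.04 for KIF23 and 0.59 for KIFC1 at the extremes and by a median of 0.25. The transport genes had a median of -0.12 on that scale, with 5 of 13 above 0. The difference between the groups was then 0.36, and it was 0.36 after loess, which removes the dependence on signal, and 0.37 after quantile normalization. Among the brightest quartile of genes the median was 0.53 for 10 mitotic genes, 0.29 for 3 transport genes and 0.27 for all genes. In the next quartile, the 2 mitotic genes (KIFC1 and KIF22) had 0.79 and 0.35, and 4 transport genes had a median of -0.11 against 0.21 for all genes.

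**Figure D4:**
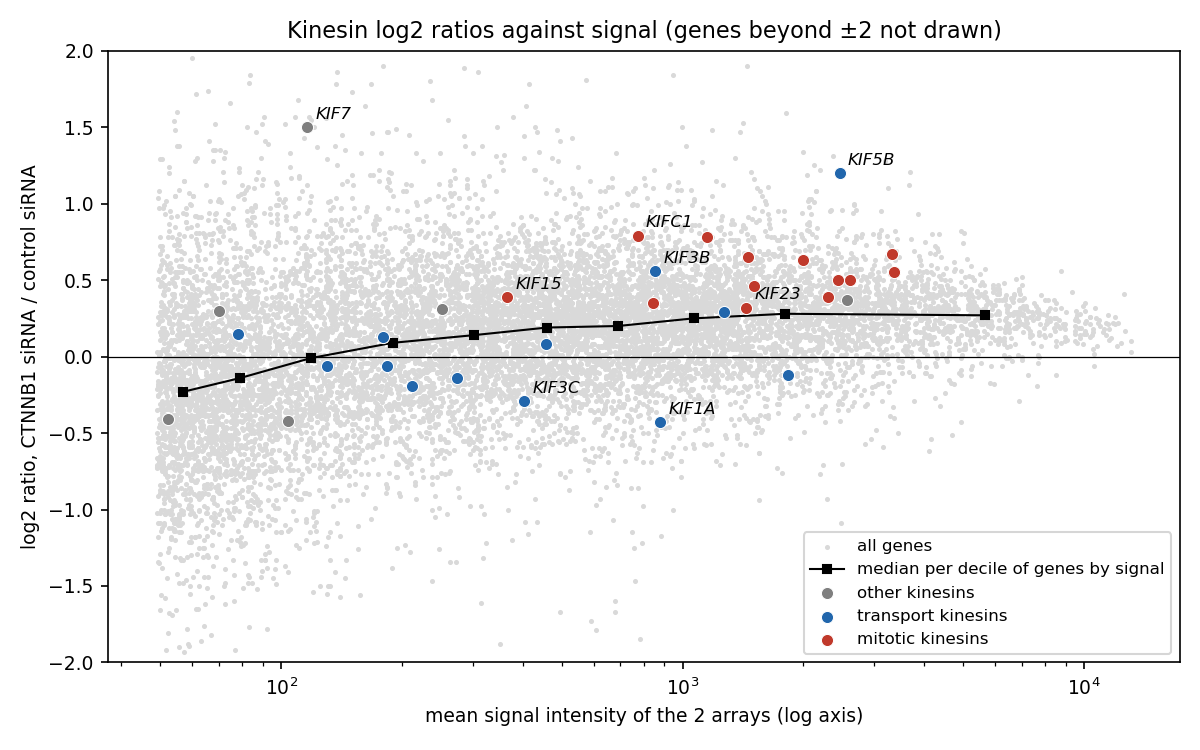
Log2 ratio against the mean signal of the 2 arrays (log axis) for all genes (grey) and for mitotic (red), transport (blue) and other (dark grey) kinesins. Black squares give the median of each decile of genes by signal, which goes from -0.23 to 0.27. The red points lie above the black line, KIF23 by 0.04, and most blue points lie below it.

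**Figure D5:**
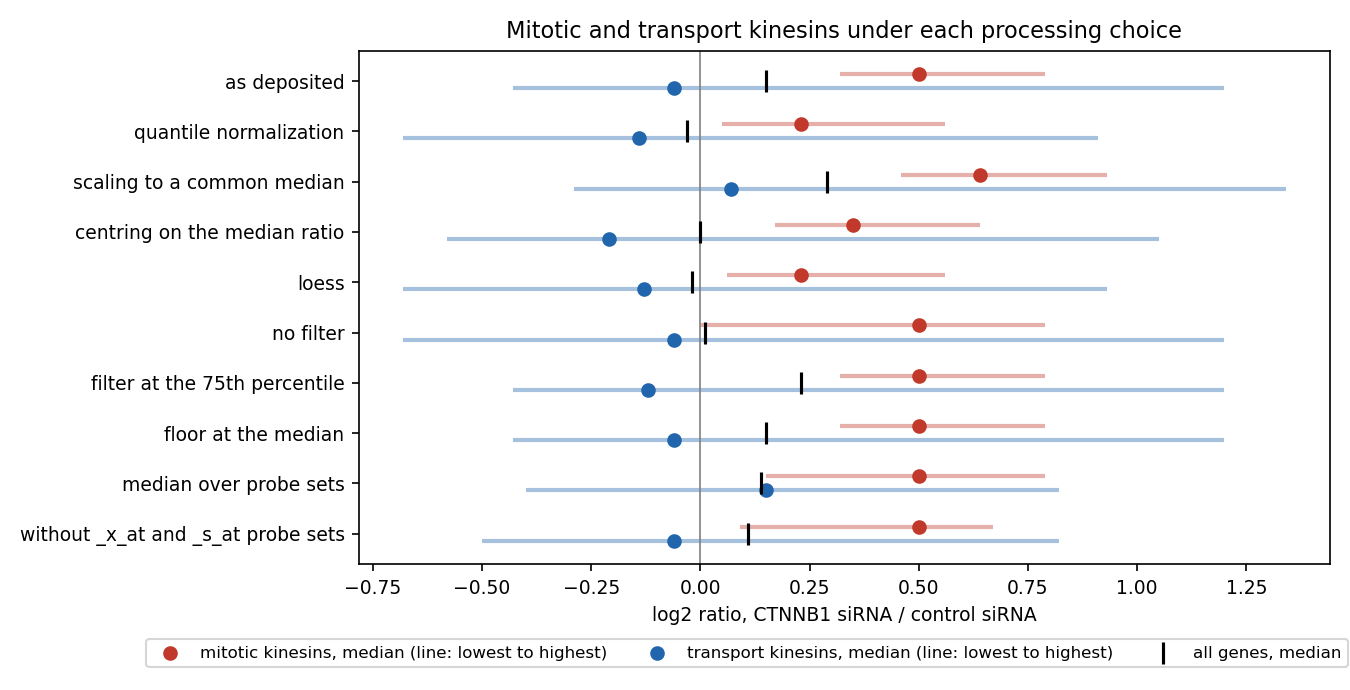
Median log2 ratio of the mitotic (red) and transport (blue) kinesins above the filter under each processing choice, with lines from the lowest to the highest gene and black bars for the median of all genes. The mitotic median runs from 0.23 to 0.64 and lies to the right of the transport median in each row, by 0.35 to 0.62.

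The ratios of mitotic kinesins with a CHR-type match spanned those of the mitotic kinesins without one. No other form of the element was searched for, so being without these letters does not mean being without a CHR. The 10 mitotic genes above the filter with TTTGAA or TTCGAA had a median ratio of 0.50, from 0.32 to 0.79. The 3 without these letters, KIF2A, KIF2C and KIF20A, had 0.65, 0.67 and 0.39, and 3 genes are too few for a comparison of the groups. Among transport genes, KIF5B had the match shown above and the ratio of 1.20, and the 8 others with a promoter entry and a signal above the filter had a median of -0.09, from -0.43 to 0.56. These are descriptions of letters in a window, and binding of any factor was not measured.

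The other kinesins passed the filter in 6 of 12 genes, and KIF7 was the one past 2-fold. KIF7, a regulator of Hedgehog signalling at the tip of the cilium, read 60.9 and 172, 2.82-fold higher on 1 probe set, and it was past 2-fold under each of the scalings tried. KIF21A, a motor best known from axons, read 2237 and 2895 (0.37). KIF9, a motor of motile cilia, read 224 and 277 (0.31), with 0.30 and 0.50 in its other probe sets above the filter, all with names that mark possible cross-hybridisation.

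KIF26B read 62.9 and 77.3 (0.30), KIF6 59.7 and 44.8 (-0.41), and KIF26A 119 and 89.1 (-0.42) with 56.1 and 86.2 in its second probe set (0.62). KIF6 was the only one of the 32 genes with a signal under 49.1 on 1 array. The genes below the filter were KIF12, KIF19, KIF21B, KIF24, KIF25 and KIF27. Of these, KIF12 read 17.3 and 48.4 and KIF24, whose promoter match is given above, 16.4 and 42.7, log2 ratios of 1.48 and 1.38 on probe sets too dim to be counted.

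Genes that work beside the mitotic kinesins had a median ratio of 0.48, next to 0.50 for the mitotic kinesins. Of 17 spindle partners, 16 had a probe set above the filter, all 16 with a ratio above 0 and none past 2-fold, where 64.0% of all genes and 76.1% of those with a mean signal of at least 209 were above 0. After centring, loess and quantile normalization 15 of the 16 were above 0. As deposited, 15 lay above the median of their own signal decile, the list by a median of 0.26. CENPE, the kinetochore kinesin that carries chromosomes to the metaphase plate and lacks a KIF symbol, read 586 and 1093 (0.90). The mitotic kinase AURKB, which KIF20A brings to the midzone, read 379 and 726 (0.94), the spindle protein gene HMMR 2038 and 3545 (0.80; 0.93 in its other probe set) and AURKA 1994 and 3343 (0.75). A dim AURKA probe set read 187 and 144 (-0.38). RACGAP1, which forms centralspindlin with KIF23, had 4232 and 5186 (0.29), and PRC1, the midzone crosslinker that recruits KIF4A, 4637 and 5936 (0.36). RACGAP1 and PRC1 were chosen as binding partners after their values were seen.

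General proliferation markers were less uniform. Of 10, 9 were above 0, against 76.1% of bright genes, with a median of 0.25, but only 4 lay above the median of their own signal decile. After loess 4 of the 10 were above 0, beside 47.4% of all genes, and after quantile normalization 5, beside 46.3%. The 4 genes named next had the largest ratios, and the others ran from -0.03 for MYBL2 to 0.25 for CCNB1 and PCNA. MKI67, the Ki-67 gene, read 2434 and 4312 (0.82), with 0.31 to 0.71 in its other probe sets. The mitotic cyclin gene CCNB2 read 3438 and 5148 (0.58), and 51.3 and 51.9 in a dim probe set (0.02). CDK1 read 3658 and 5025 (0.46), with 0.39 and 0.45 in bright probe sets and -0.38 in a dim one (110 and 83.9). TOP2A, the topoisomerase that untangles sister chromosomes, read 4457 and 5886 in its brightest probe set (0.40), but 939 and 1877 in the next and 44.7 and 109 in a dim one (1.28), so that both of these had larger ratios. A larger share of cells in mitosis and more transcript per cell cannot be told apart in these bulk samples, and the part of the cell cycle in the kinesin ratios was not tested.

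Genes that work beside the transport kinesins had ratios above 0 about as often as all genes. Of 15 kinesin light chains and adaptors above the filter, 10 (66.7%) had ratios above 0 and 5 below, against 64.0% of all genes above 0. Their median was 0.20, and 0.04 relative to their own signal deciles. The light chain KLC4 was 2.97-fold higher (45.8 and 136), on 1 probe set that was dim on the control array, and it was the one past 2-fold. SPAG9, a scaffold that links kinesin-1 to cargo, read 720 and 1127 (0.65), with -0.28 to 0.35 in its dimmer probe sets above the filter. KTN1, the kinesin receptor kinectin, read 2654 and 4096 (0.63), with 0.86 and 0.45 in its other bright probe sets. These bright probe sets all have names that mark possible cross-hybridisation. The remaining KTN1 probe set, a dim one, read 120 and 111 (-0.11).

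Dynein and dynactin, the minus-end-directed counterpart of the transport kinesins, had 16 of 20 genes (80.0%) above 0, a median of 0.24 and none past 2-fold. With a median mean signal of 1526, the list compares with the 76.1% above 0 among bright genes. After loess 8 of the 20 were above 0, beside 47.4% of all genes, and after quantile normalization 9, beside 46.3%. NDEL1, a dynein regulator, had the largest ratio (580 and 1070, 0.88). Tubulins, which form the track itself, had a median of 0.20 over 14 genes, from -0.43 for TUBA1A (1687 and 1253) to 0.57 for TUBB6 (1779 and 2636). Relative to genes of like signal these 2 lists had medians of -0.04 and -0.05, against 0.25 for the mitotic kinesins.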

How the data were processed

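RNA of 2 HCC15 cultures, 1 per siRNA, was measured on Affymetrix arrays. The deposited values are linear signal intensities of 54675 probe sets, made by the authors with MAS5, per the submitters' processing notes. Its version, scaling target and detection calls are not stated there. GEO's platform annotation gave 41097 probe sets 1 symbol and 1801 several, and 11777 were unnamed; of the 41097, the gene numbers of 41043 were found in RefSeq.

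Log2 ratios were computed without further normalization in Python 3.11.15 (pandas 2.3.3), with the floor at the 25th percentile and the filter at the median of all values. The calculation was checked on simulated arrays with known changes. No p-value was possible with 1 array per group. Members, role lists and alternatives were chosen with earlier results of these data known. All mitotic, transport and other kinesins are accounted for; up to 4 genes with the largest absolute ratio were named from each companion list. Alternatives were scaling (quantile, common median, centring, loess with a span of 0.4), filter, floor, probe set choice and list membership. Motif searches used RefSeq promoters, with matches sought on both strands.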

Additional observations from a re-analysis of the deposited data

How the results depend on the processing

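The mitotic median of 0.50 was 0.35 after centring on the median ratio and 0.23 after loess and after quantile normalization. The all-gene median was then 0.00, -0.02 and -0.03, against 0.15 as deposited and 0.29 with a common median. The transport median of -0.06 was -0.21 after centring and 0.15 with the median over probe sets, where the difference between the groups was 0.35. All 13 mitotic genes stayed above 0 and above the median of all genes in each of the 4 scalings; without probe sets named _x_at and _s_at, KIF2A (0.09) was the one of 9 not above that median (0.11). The count of kinesins at least 2-fold higher, 2 as deposited, was 1 after loess, quantile normalization, the median over probe sets and the removal of _x_at and _s_at probe sets (KIF7 alone), 1 with the filter at the 75th percentile (KIF5B alone) and 4 with no filter, where KIF12 and KIF24 joined. The count at least 2-fold lower was 0, and 1 (KIF25) with no filter. The cause of these changes was not tested beyond the construction of each setting. Of 275 values of single kinesins over the 9 settings, 271 moved by less than the probe set SD of 0.42. In 9 genes, none of them mitotic, 14 values changed sign. Many values could hardly move by construction. The filter and floor settings keep the brightest probe set, and centring and the common median shift all ratios about alike. From the probe set SD a move of 0.15 was allowed for the mitotic median. The fall from 0.50 to 0.23 after loess and after quantile normalization was larger. Dim genes are limited by signal over background, which these files do not give. No paired analysis was possible because each group has 1 array.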

Other observations

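Antisense genes named after kinesins were outside the family as defined. KIF9-AS1 read 84.3 with control siRNA and 102 with CTNNB1 siRNA and was the one of the 4 above the signal filter. KIF23-AS1 read 28.5 and 10.2, and KIF1C-AS1 10.1 and 11.8. The 3 probe sets of KIF25-AS1 read between 3.20 and 16.8.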
